A study of Mus musculus with 8 samples.

Results

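The genes described are the cytosolic ribosomal protein genes of the mouse left ventricle. They were chosen by name and annotation alone, as protein-coding rows whose symbol is Rps or Rpl with a number, Rpsa, or Rplp0 to Rplp2, which gave 77 genes of 14578 and 242 transcripts of 33027. The small subunit is represented by 29 genes and the large subunit by 48. RNA was sequenced in 8 libraries from mice of 6 months on a C57 background. The groups were WT (n = 2), mdx (n = 3), in which a mutation of Dmd removes the muscle membrane protein dystrophin, and mdx sln+/- (n = 3), which carry the same mutation and are heterozygous for Sln, the gene of the calcium pump inhibitor sarcolipin. The series text calls mdx a heart failure model, and its design asks which molecular pathways go with the cardiac pathology. As a check of the labels, Dmd was at 6.60 and 6.98 in WT, 4.30, 4.32 and 4.22 in mdx and 4.09, 4.10 and 4.25 in mdx sln+/-, lower in all 6 mdx libraries than in WT; Sln was not analysed here. The labels do not say that each library is a separate animal, and p-values therefore speak only of the spread among these 8 libraries, which may be technical.

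A cytosolic ribosome is built from ribosomal RNA and about as many different proteins as there are genes in the family, nearly all of them needed in equal amounts. Their mRNAs begin with an unbroken stretch of pyrimidines (the 5′ terminal oligopyrimidine motif), through which the kinase complex mTORC1 and the RNA-binding protein LARP1 control their translation as a set. In striated muscle a few members are exchanged for paralogues, the best known being Rpl3l in place of Rpl3 in the large subunit. The genes have left many processed pseudogenes in the genome, and reads of short, near-identical transcripts are hard to assign.

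Start regions are shown first for members on which the comparisons below turn. They run from 60 bases before the annotated start to 20 bases from it on, 5′ to 3′ on the gene's strand, from RefSeq on GRCm38.p6. Capitals mark the longest unbroken stretch of C and T that touches the 5 bases on either side of the start. Rpl27a, Rps24, Rps15a and Rpl34 have long stretches, whereas Rpsa, Rpl11 and the muscle paralogue Rpl3l have short ones.
Rpl27a, chr7:109519135-109519214, plus strand: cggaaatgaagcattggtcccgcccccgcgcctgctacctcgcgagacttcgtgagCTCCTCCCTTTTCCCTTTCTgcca
Rps24, chr14:24490618-24490697, plus strand: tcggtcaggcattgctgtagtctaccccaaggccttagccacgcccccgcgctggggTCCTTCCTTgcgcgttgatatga
Rps15a, chr7:118116128-118116207, minus strand: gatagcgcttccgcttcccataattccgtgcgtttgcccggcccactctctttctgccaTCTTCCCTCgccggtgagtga
Rpl34, chr3:130730318-130730397, minus strand: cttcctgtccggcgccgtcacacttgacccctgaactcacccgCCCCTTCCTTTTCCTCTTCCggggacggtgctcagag
Rpsa, chr9:120127706-120127785, plus strand: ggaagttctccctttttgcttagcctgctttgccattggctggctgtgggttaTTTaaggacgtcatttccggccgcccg
Rpl11, chr4:136053374-136053453, minus strand: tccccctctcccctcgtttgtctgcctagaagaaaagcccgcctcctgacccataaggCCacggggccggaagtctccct
Rpl3l, chr17:24727766-24727845, plus strand: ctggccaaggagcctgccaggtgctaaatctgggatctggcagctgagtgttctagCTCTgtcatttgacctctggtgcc
The stretch was 20 bases in Rpl27a, 9 in Rps24, 9 in Rps15a, 20 in Rpl34, 3 in Rpsa, 2 in Rpl11 and 4 in Rpl3l. A start region was in the table for 58 members. Where a gene had several annotated starts, the start with the longest stretch was counted, for members and all genes alike. The regions shown above were picked in the same way. Among these, 23 (39.7%) had a stretch of at least 8 bases on the gene's own strand, against 3068 (11.4%) of 27025 genes in the same table. The annotated starts need not be the starts used in the ventricle, so a short stretch says only that these letters are not in this window.

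The 77 genes held 0.415% and 0.493% of the summed abundance in WT 1 and 2. The mdx libraries 1, 2 and 3 held 0.564%, 0.512% and 0.451%. The mdx sln+/- libraries 1, 2 and 3 held 0.541%, 0.517% and 0.50%. The share in mdx 3 lay between the 2 WT libraries, so WT and mdx overlapped, while all 3 mdx sln+/- libraries lay above WT. Their summed linear abundance was 3722 and 4052 in WT, 4402, 4317 and 4166 in mdx, and 4666, 4552 and 4526 in mdx sln+/-, and by this measure the groups did not overlap. No test was made on these sums. The table holds no counts, which leaves the sequencing depth and the precision it would give unknown. All 8 libraries sum to between 780262 and 924253. In bulk tissue, less RNA of a gene in each cell and fewer cells of a type cannot be told apart. Of the 77 genes, 76 passed the filter on low values (at least 1 in at least 2 libraries) and were tested among 13783 genes; Rpl35a, a large subunit protein, was listed below it. Levels below are log2(abundance + 1), differences are on that scale, which understates changes of low genes, and a value after ± is the SE of the limma fit.

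**Figure D1:**
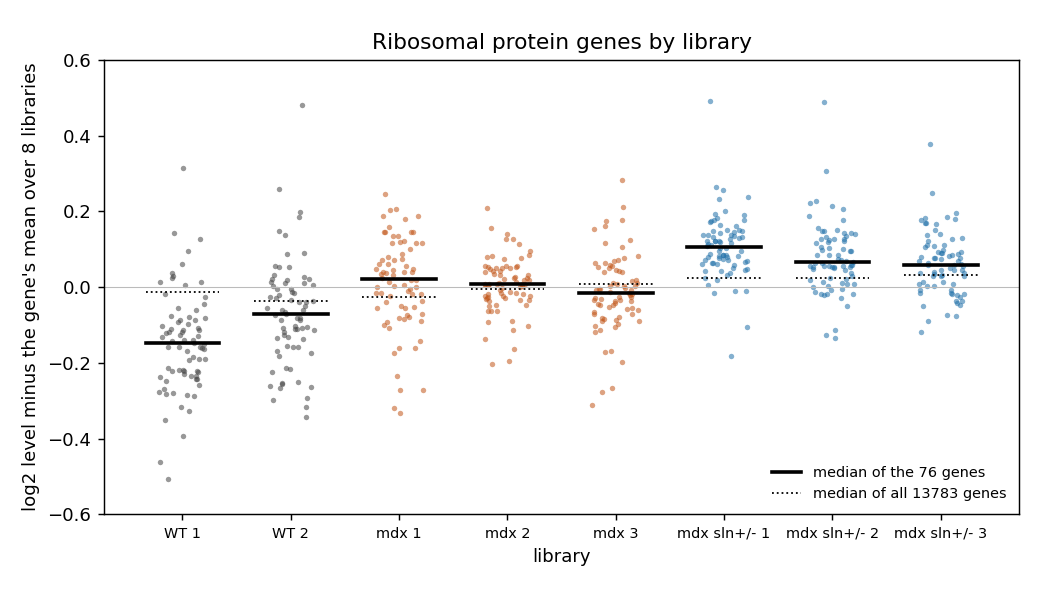
Each point is 1 of 76 ribosomal protein genes, plotted as its log2 level minus its own mean over the 8 libraries (y axis, log2 units) for each library (x axis); solid lines are medians of these genes, dotted lines medians of all 13783 genes tested, and 6 points lie beyond the axis. The medians lie lowest in the 2 WT libraries and highest in the 3 mdx sln+/- libraries.

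Seen library by library, 11 and 21 of the 76 genes lay above their own mean in WT 1 and 2. The mdx libraries 1, 2 and 3 had 44, 43 and 31 such genes. The mdx sln+/- libraries 1, 2 and 3 had 71, 64 and 58. The share of all genes tested that lay above their own mean was 47.1% and 43.7% in WT 1 and 2. It was 44.1%, 48.4% and 53.6% in mdx 1, 2 and 3. In mdx sln+/- 1, 2 and 3 this share was 58.8%, 57.4% and 60.4%, so all genes also lay higher there. The median gene deviated by -0.15 and -0.07 in WT, by 0.02, 0.01 and -0.02 in mdx, and by 0.11, 0.07 and 0.06 in mdx sln+/-. Over all genes tested the same median ran from -0.04 to 0.03, a narrower range. The library names come in 2 styles, indexed (mdx 1, mdx 2, mdx sln+/- 1 and mdx sln+/- 2) and plain (both WT libraries, mdx 3 and mdx sln+/- 3). Within mdx and within mdx sln+/-, the plain-named library had the fewest ribosomal protein genes above their mean.

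Between mdx and WT, 8 of the 76 ribosomal protein genes rose and 0 fell. Of all genes tested, 9.56% were called higher and 8.15% lower, so the share of members that rose, 10.5%, lay near the background. The 8 were Rpl11, Rpl27a, Rpl36 and Rplp1 of the large subunit and Rps15a, Rps24, Rps29 and Rpsa of the small subunit. Each rose by 0.33 to 0.46, which is 1.26-fold to 1.37-fold. The median difference of the 76 genes was 0.11, against 0.02 over all genes tested. A positive difference was seen in 62 of them, where 53.1% of all genes tested had one. In 33 members every mdx library lay above both WT libraries, where 27.8% of all genes tested did so; in 3 members, Rpl10, Rpl22l1 and Rpl3l, every mdx library lay below both, where 23.6% did so. At an unadjusted p of 0.05, 21 members (27.6%) passed, below the 34.6% of all genes tested. Small subunit genes had a median difference of 0.14 (28 of 29 positive) and large subunit genes one of 0.08 (34 of 47 positive).

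The largest of these rises was that of Rps15a, a protein of the small subunit. Its level was 5.02 and 5.26 in WT, 5.55, 5.66 and 5.59 in mdx, and 5.79, 5.66 and 5.72 in mdx sln+/-. The difference of mdx from WT was 0.46 ± 0.09 (limma, adjusted p = 0.017), and no mdx library overlapped WT. Rpsa, also known as the laminin receptor precursor and placed at the head of the small subunit, was at 7.25 and 7.50 in WT, 7.78, 7.85 and 7.73 in mdx and 7.90, 7.80 and 7.89 in mdx sln+/-. It rose by 0.41 ± 0.09 in mdx (limma, adjusted p = 0.023), again without overlap between the groups.

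Rplp1, an acidic protein of the ribosomal stalk that recruits elongation factors, was at 7.18 and 7.28 in WT, 7.71, 7.58 and 7.56 in mdx and 7.78, 7.80 and 7.71 in mdx sln+/-. It rose by 0.39 ± 0.07 in mdx against WT (limma, adjusted p = 0.016). The other stalk proteins did not pass: Rplp0, the base of the stalk, differed by 0.13 ± 0.07 and Rplp2, the partner of Rplp1, by 0.20 ± 0.06 (adjusted p = 0.218 and 0.064). Rps29, a small zinc-binding protein of the small subunit, was at 6.60 and 6.63 in WT and at 7.01, 7.01 and 6.93 in mdx, a rise of 0.37 ± 0.06 (limma, adjusted p = 0.011), which is the smallest adjusted p among the members. Rpl11, which together with Rpl5 and 5S ribosomal RNA can bind the p53 inhibitor Mdm2, was at 2.74 and 2.75 in WT and at 3.08, 3.14 and 3.18 in mdx and rose by 0.38 ± 0.08 (limma, adjusted p = 0.023). Its partner Rpl5 differed by 0.28 ± 0.13 and did not pass (adjusted p = 0.187). Rps24, Rpl27a and Rpl36 rose by 0.33 ± 0.06, 0.33 ± 0.07 and 0.38 ± 0.09. For Rpl36 the difference was 0.09 in the r1 columns and 0.68 in the r2 columns, and neither passed alone (limma, adjusted p = 0.789 and 0.124).

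These calls rest on few libraries and on how the fit is set up. Of 23 alternative fits, 4 ended the call of Rps29, 6 that of Rplp1 and 12 that of Rpl36. With the name style as a term, with plain-named libraries only, with the libraries of these 2 groups alone, or without WT 2 and mdx sln+/- 3, both low in Y-linked genes, 0 members were called in mdx against WT by limma (13, 5, 12 and 14 at an unadjusted p of 0.05, or 17.1%, 6.58%, 15.8% and 18.4%, where 21.4%, 15.2%, 27.3% and 22% of all genes passed). Over all genes tested these fits called 1.24%, 0.467%, 3.72% and 0.565% higher and 1.37%, 0.437%, 3.65% and 0.697% lower. Leaving out 1 library in turn gave 3 to 8 rises, with 4 without WT 1, 3 without WT 2, 5 without mdx 2 and 4 without mdx sln+/- 1, and without WT 1 also 1 fall, while the median difference stayed between 0.08 and 0.15. In these 4 fits 7.26%, 2.83%, 7.26% and 4.96% of all genes were called higher, so fewer calls were made among all genes too.

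**Figure D2:**
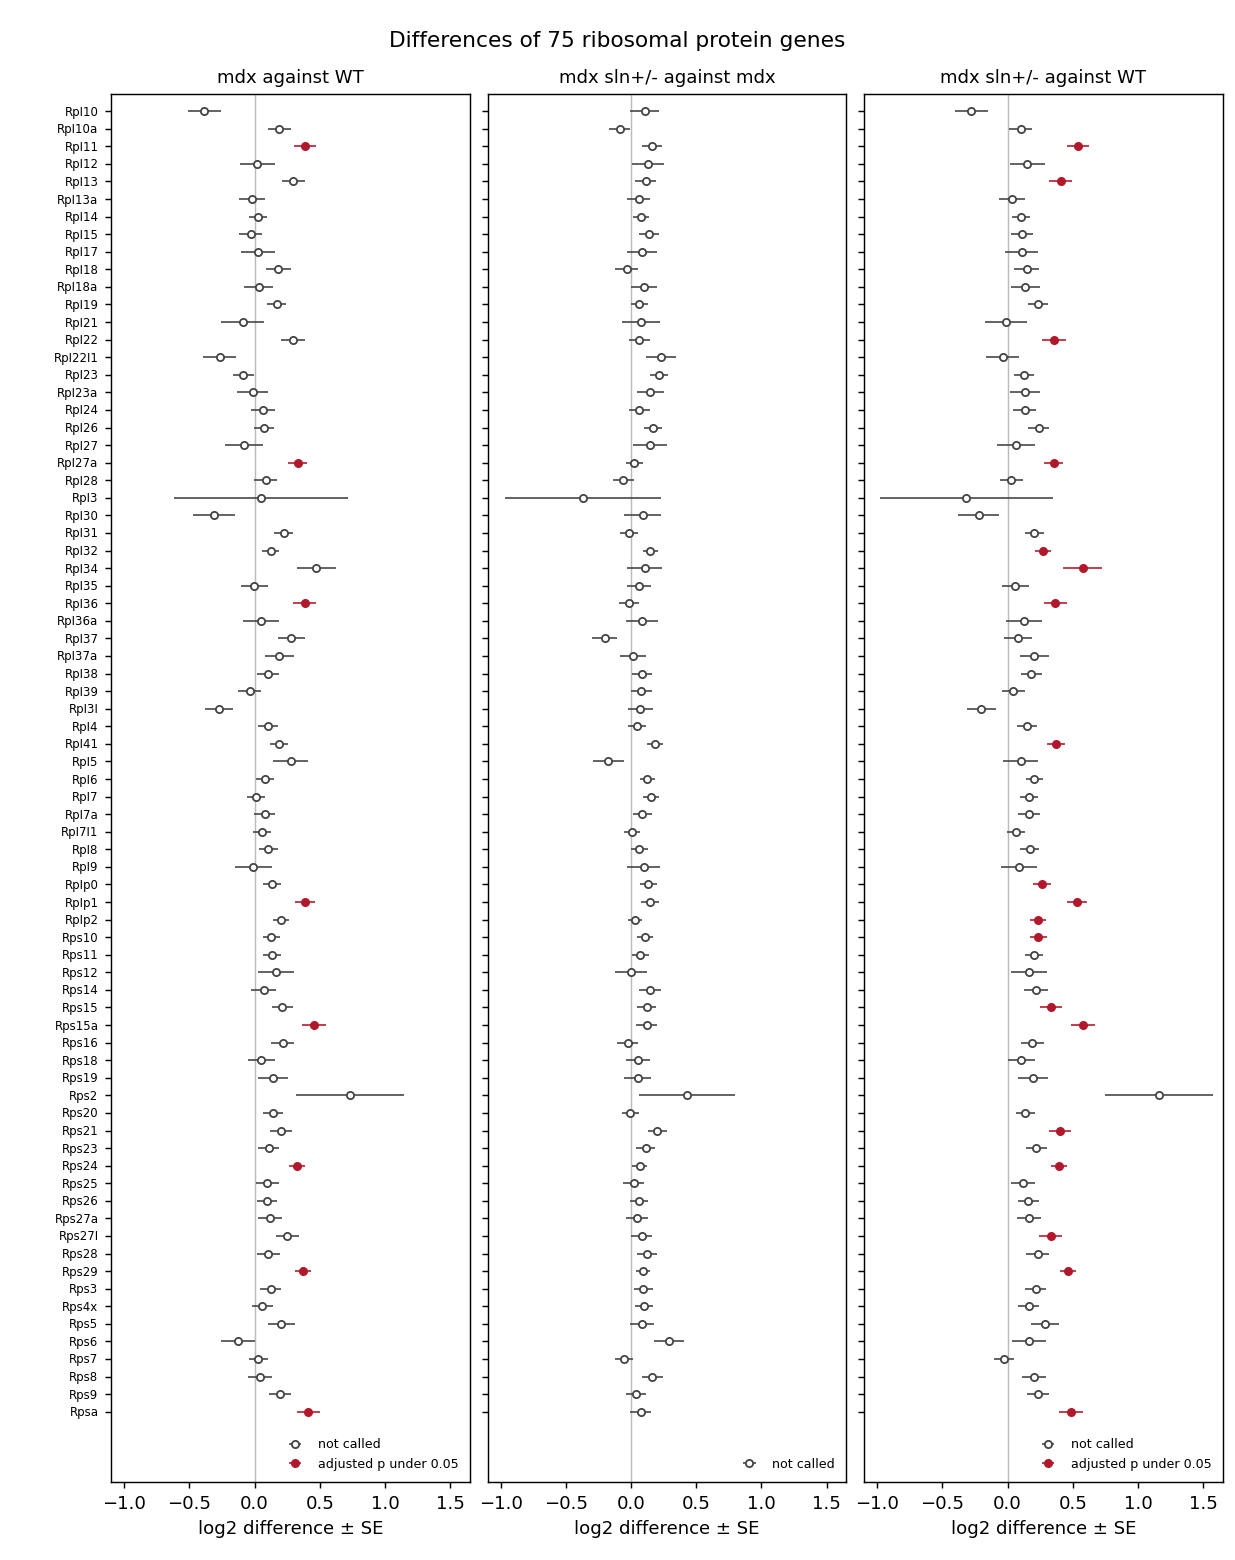
Differences of 75 of the 76 ribosomal protein genes in the 3 comparisons (x axis, log2 difference with the standard error from limma as bars; y axis, genes), with genes at an adjusted p under 0.05 filled. In mdx against WT 8 genes are filled, in mdx sln+/- against mdx 0, and in mdx sln+/- against WT 19 of the 20 called, all of them to the right of 0; Rpl3 and Rps2 have the widest errors.

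Between mdx sln+/- and mdx, 0 of the 76 ribosomal protein genes changed by limma at an adjusted p of 0.05, and the smallest adjusted p among them was 0.578. None of the 13783 genes was called in this comparison (0% in either direction, with 1186 genes and 8 members at an unadjusted p under 0.05), and every alternative fit that was run also called 0 members. The median difference was 0.08, against 0.03 over all genes tested. Of the 76 differences 64 were positive, where 60.3% of those of all genes tested were. In 25 members every mdx sln+/- library lay above every mdx library, where 16.8% of all genes tested did so, and in 1, Rps7, every one lay below, where 8% did so.

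The lowest unadjusted p values were those of Rpl41, Rpl23, Rps21 and Rpl32. Rpl41, the smallest ribosomal protein, was at 6.75, 6.73 and 6.70 in mdx and at 6.99, 6.91 and 6.84 in mdx sln+/-, a difference of 0.18 ± 0.06. Rpl23, which like Rpl11 can bind Mdm2, was at 5.11, 5.16 and 5.18 in mdx and at 5.44, 5.35 and 5.29 in mdx sln+/-, a difference of 0.21 ± 0.07. For Rps21 and Rpl32 the differences were 0.20 ± 0.07 and 0.15 ± 0.06. In each of these 4 genes the groups did not overlap, and each adjusted p was 0.578. Rps6, the small subunit protein phosphorylated by the S6 kinases downstream of mTORC1, differed by 0.29 ± 0.12 with the same adjusted p. The negative differences with the lowest unadjusted p were those of Rpl37 (-0.20 ± 0.09), Rpl5 (-0.18 ± 0.12), Rpl10a (-0.09 ± 0.08) and Rps7 (-0.06 ± 0.07).

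Between mdx sln+/- and WT, 20 of the 76 ribosomal protein genes rose and 0 fell, a share of 26.3%, where 11.3% of all genes tested were called higher and 7.65% lower. The median difference was 0.17, against 0.05 over all genes tested. Of the 76 differences 69 were positive, where 57.8% of those of all genes tested were. In 50 members every mdx sln+/- library lay above both WT libraries, where 36.4% of all genes tested did so, and in 2, Rpl10 and Rpl3l, every one lay below, where 23.5% did so. This comparison and that of mdx with WT share the same 2 WT libraries, so the values of both are given side by side and their likeness is no second result.

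The 20 genes were 9 of the small subunit and 11 of the large subunit. Rps15a differed from WT by 0.58 ± 0.09 (0.46 ± 0.09 in mdx), Rpl11 by 0.54 ± 0.08 (0.38 ± 0.08) and Rplp1 by 0.53 ± 0.07 (0.39 ± 0.07). Rpsa differed by 0.49 ± 0.09 (0.41 ± 0.09) and Rps29 by 0.46 ± 0.06 (0.37 ± 0.06). Rpl34, with the long pyrimidine stretch shown above, was at 4.62 and 4.12 in WT, 4.73, 4.92 and 4.88 in mdx and 5.03, 4.87 and 4.95 in mdx sln+/-. It rose by 0.58 ± 0.15 in mdx sln+/- (limma, adjusted p = 0.037), while its difference of 0.47 ± 0.15 in mdx did not pass (adjusted p = 0.068). The call of Rpl34 ended in 13 of 23 alternatives, and with its near-identical copies added the difference was 0.19 (adjusted p = 0.112).

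All 3 proteins of the stalk rose here: Rplp0 by 0.27 ± 0.07, Rplp1 as given above and Rplp2 by 0.23 ± 0.06. The calls of Rplp0 and Rplp2 ended in 13 and 16 of 23 alternatives, and that of Rplp1 in 2. Other rises were those of Rpl13, Rps21, Rps24, Rpl41, Rpl36, Rpl22, Rpl27a, Rps15, Rps27l, Rpl32 and Rps10, between 0.24 and 0.41. Rps27l, a paralogue of Rps27 that p53 can induce, was among them with 0.33 ± 0.09. With median-ratio scaling 13 members rose, and the calls over all genes turned from 1552 higher and 1055 lower to 1138 higher (8.25%) and 1349 lower (9.78%). Fewer calls were left with the name style as a term (4 rises), with plain-named libraries only (0 rises and 1 fall), without WT 2 and mdx sln+/- 3 together (0, with 28 at an unadjusted p of 0.05, or 36.8% against 20.4% of all genes, and a median difference of 0.25), and from the r1 columns alone (10). Over all genes tested these 4 fits called 2.02%, 1.21%, 0.55% and 9.55% higher and 1.63%, 1.26%, 0.396% and 6.33% lower. Leaving out 1 library gave 5 to 21 rises, with 9 without WT 1, where 1 gene also fell, 8 without WT 2, 5 without mdx sln+/- 1, 12 without mdx sln+/- 2 and 9 without mdx sln+/- 3. In these 5 fits 8.79%, 3.78%, 3.29%, 7.1% and 4.62% of all genes were called higher.

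Near-identical copies took most of the abundance of this family. By blastn, 156 transcripts in the table, 141 of them processed pseudogenes, matched a member with at least 90% identity over at least 80% of their length, and 70 of the 77 members had such a copy. The copies held 57.8% to 58.3% of the summed abundance of members and copies in every library. With them the family held 0.990% and 1.18% of the total in WT, 1.34%, 1.22% and 1.08% in mdx, and 1.30%, 1.23% and 1.19% in mdx sln+/-. In 51 members over 50% of the sum lay on the copies, and in 18 over 90%. Of the 5 members with the lowest level on their own rows, Rpl10, Rpl17, Rpl35 and Rpl35a had 99.4%, 97.7%, 98.9% and 96.3% on copies, whereas Rpl9, at a level of 0.99, had no copy. The SD over members of the mean log2 level fell from 1.98 to 1.42 when copies were added. Members under a level of 3 fell from 17 to 3, a count that could not rise because added copies only raise a level. How the submitters' quantification divides reads between such rows is not given, so a level on a member's own row is uncertain for these genes.

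**Figure D3:**
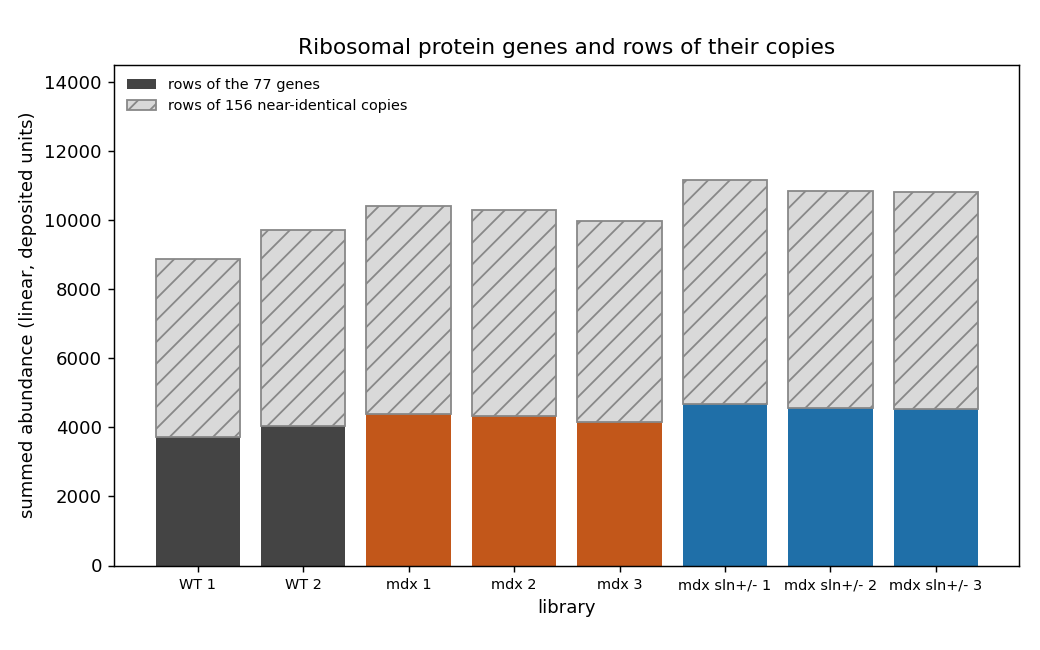
Summed linear abundance (y axis, deposited units) of the rows of the 77 ribosomal protein genes (solid bars) and of 156 rows of near-identical copies (hatched) in each library (x axis). The copies make up 57.8% to 58.3% of each bar, and the whole bars are lowest in the 2 WT libraries.

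The pair of Rpl3 and Rpl3-ps1 is an example of a very close copy. Other copies were accepted from 90% identity on and may differ at more bases. The transcript Rpl3-201 on chromosome 15 and the processed pseudogene Rpl3-ps1 on the X chromosome differ at 2 of 1210 aligned bases in GENCODE M21. These are C137A and T866C, with the base of Rpl3 first and positions counted from 1 at the 5′ end of Rpl3-201. Each is shown in capitals with the coding sequence around it.
Rpl3-201, bases 112 to 162: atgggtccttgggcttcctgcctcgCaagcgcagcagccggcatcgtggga
Rpl3-ps1-201, same stretch: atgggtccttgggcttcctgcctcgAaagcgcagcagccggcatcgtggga
Rpl3-201, bases 841 to 891: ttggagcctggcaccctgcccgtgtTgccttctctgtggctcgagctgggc
Rpl3-ps1-201, same stretch: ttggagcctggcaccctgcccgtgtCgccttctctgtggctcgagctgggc
A read that lies within the 1210 aligned bases and covers neither position is the same from both. Rpl3-201 has 1351 bases, so its ends lie outside the alignment.

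Rpl3, the large subunit protein that Rpl3l can replace in striated muscle, had the largest spread of all members. Its level was 3.69 and 3.77 in WT, 4.73, 2.80 and 3.81 in mdx and 3.45, 4.40 and 2.39 in mdx sln+/-. The 2 value columns of a library, r1 and r2, differed by up to 1.99 for this gene (3.83 and 1.85 in mdx 2), more than any group mean of this gene differed from another. The linear abundance on the row of Rpl3-ps1 was 101 and 112 in WT, 170.5, 160.1 and 128 in mdx, and 148, 138 and 152 in mdx sln+/-, with no overlap between WT and either mdx group. Added together, Rpl3 and its copy rose by 0.49 in mdx against WT (limma, adjusted p = 0.042), where Rpl3 alone differed by 0.05 ± 0.67.

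Rpl3l, the paralogue of striated muscle, has no copy in the table. It was at 7.54 and 7.70 in WT, 7.17, 7.45 and 7.42 in mdx and 7.47, 7.32 and 7.48 in mdx sln+/-. All 6 dystrophin-deficient libraries lay below both WT libraries, yet the difference of -0.27 ± 0.11 in mdx and of -0.20 ± 0.11 in mdx sln+/- did not pass (limma, adjusted p = 0.126 and 0.225). The main transcripts, Rpl3-201 with 1351 bases and Rpl3l-202 with 1375, are of nearly equal length. In linear abundance Rpl3l-202 held 183 and 205 in WT against 101 and 112 on Rpl3-ps1 and 9.0 and 11.2 on Rpl3-201.

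**Figure D4:**
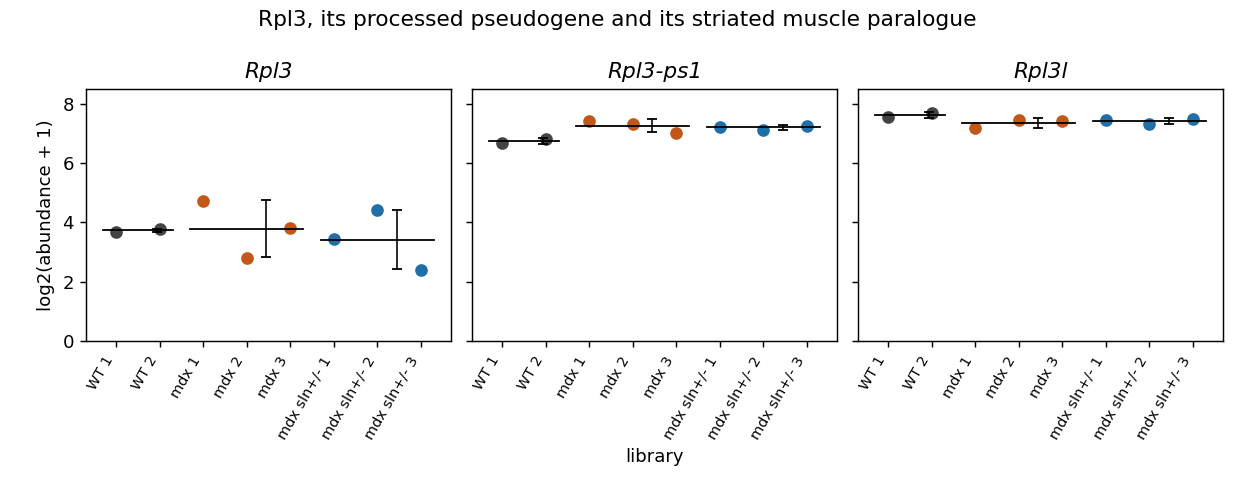
Level of Rpl3, of its processed pseudogene Rpl3-ps1 and of the striated muscle paralogue Rpl3l (y axis, log2(abundance + 1)) in each library (x axis), with group means as lines and the SD as bars. Rpl3 scatters within the mdx groups, while Rpl3-ps1 lies lower and Rpl3l higher in both WT libraries than in all others.

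Adding copies to each member and fitting again, an alternative chosen after the data were seen, gave 10 rises and 0 falls in mdx against WT and 24 rises and 0 falls in mdx sln+/- against WT. Over all genes this fit called 9.53% higher and 8.23% lower in the first comparison and 11.1% and 7.69% in the second. Only 5 of the 10 and 16 of the 24 had been called on their own rows. Rps29, Rplp1, Rpsa, Rpl27a and Rpl36 kept their call in mdx against WT, with 0.36, 0.49, 0.40, 0.27 and 0.26. The difference of Rps15a went from 0.46 to 0.10, that of Rpl11 from 0.38 to 0.14 and that of Rps24 from 0.33 to 0.19, and none of them passed (adjusted p = 0.410, 0.159 and 0.091). In place of them Rpl3, Rpl22, Rpl30, Rpl35 and Rps16 were called. Rpl30 turned from -0.31 on its own row to 0.31 with its copies (adjusted p = 0.034), and Rpl35 from -0.00058 to 0.26 (adjusted p = 0.030), with 98.9% of its summed abundance on copies. Rplp1 was called on its own row and with its copies. Its copy Gm10073, a protein-coding row on chromosome 8, was at 40.5 and 42.0 in WT, 60.6, 70.7 and 83.0 in mdx and 108, 96.9 and 86.4 in mdx sln+/-.

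Rps3a1, a small subunit gene whose symbol falls outside the rule, fell on its own row. Its level was 6.89 and 6.36 in WT, 5.40, 5.47 and 5.35 in mdx and 5.56, 5.41 and 5.46 in mdx sln+/-, and it fell by 1.22 ± 0.15 in mdx (limma, adjusted p = 0.0043). The related row Rps3a3 was at 1.46 and 6.46 in WT, 7.24, 7.30 and 7.20 in mdx and 7.42, 7.31 and 7.37 in mdx sln+/-. The sum of Rps3a1, Rps3a2 and Rps3a3 was at 8.06 and 8.41 in WT, 8.49, 8.47 and 8.38 in mdx and 8.60, 8.53 and 8.54 in mdx sln+/-, with WT 1 lowest and WT 2 below all others but mdx 3. Rps3a2 and Rps3a3 were chosen after their values were seen. Rps2, also of the small subunit, was at 2.71 and 1.04 in the 2 WT libraries and at 2.49 to 3.07 in the other 6, and its difference of 0.73 ± 0.41 in mdx did not pass (limma, adjusted p = 0.251).

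Among the paralogue pairs, Rpl22 and Rpl22l1 of the large subunit had differences of opposite sign in mdx against WT. Rpl22 was at 5.70 and 5.68 in WT, 6.14, 5.92 and 5.90 in mdx and 5.98, 6.11 and 6.04 in mdx sln+/-. It differed by 0.30 ± 0.09 in mdx (limma, adjusted p = 0.062) and rose by 0.36 ± 0.09 in mdx sln+/- (adjusted p = 0.034). Rpl22l1 was at 2.94 and 3.11 in WT, 2.59, 2.90 and 2.79 in mdx and 3.02, 2.86 and 3.09 in mdx sln+/-. It differed from WT by -0.27 ± 0.13 in mdx and by -0.04 ± 0.13 in mdx sln+/-, neither of which passed (adjusted p = 0.184 and 0.859). Rps4l, which the table calls a transcribed processed pseudogene, rose by 0.92 ± 0.16 in mdx (limma, adjusted p = 0.012), from 3.65 and 3.12 in WT to 4.37, 4.22 and 4.32; its X-linked relative Rps4x differed by 0.06 ± 0.08.

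Single transcripts changed in both directions. A fit over all 29021 transcripts that passed the filter, added after the data were seen, called 17 of 221 member transcripts in mdx against WT, 13 higher and 4 lower, where 5.51% of all transcripts were called higher and 5.28% lower. In mdx sln+/- against WT it called 20 higher and 4 lower (6.85% and 5.94% of all), and in mdx sln+/- against mdx 0 (0% of all). All 4 lower transcripts were protein-coding forms of Rps15a and Rpl41. Overlapping transcripts share reads, so a change of 1 form and another division of the same reads cannot be told apart.

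Rps15a-203, a short form with 3 exons and 250 bases, had linear abundances of 20.3 and 25.6 in WT, 40.3, 43.2 and 41.3 in mdx and 48.2, 44.2 and 45.4 in mdx sln+/-. It rose by 0.84 ± 0.11 in mdx (limma, adjusted p = 0.0076). Rps15a-201, the form with 5 exons and 640 bases, was at 6.7 and 6.7 in WT and at 2.8, 3.5 and 3.2 in mdx and fell by 0.89 ± 0.13 (adjusted p = 0.011), and Rps15a-202 fell by 0.72 ± 0.12. Rps15a-ps7, a processed pseudogene on chromosome 2, was at 43.9 and 52.0 in WT and at 38.2, 38.7 and 39.8 in mdx, and the sum over gene and copies differed by 0.10, as given above.

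In Rpl41, the form Rpl41-203 was at 64.9 and 74.2 in WT and at 93.7, 93.7 and 93.0 in mdx, a rise of 0.42 ± 0.09, while the form Rpl41-204 was at 19.4 and 14.2 in WT and at 9.6, 8.3 and 7.5 in mdx, a fall of 0.90 ± 0.16. In Rplp0, the form Rplp0-201 with 7 exons was at 48.4 and 31.8 in WT, 81.3, 92.5 and 100.8 in mdx and 104, 101.6 and 103 in mdx sln+/-. It rose by 1.20 ± 0.17 in mdx (limma, adjusted p = 0.0090). The more abundant Rplp0-204 was at 219 and 252 in WT and at 235, 212 and 186 in mdx and was not called, and the gene as a whole differed by 0.13 ± 0.07, which did not pass.

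Rps24 has forms that differ at the end of the protein. Rps24-205 holds an exon of 18 bases (chr14:24494052-24494069, GRCm38), in which its reading frame ends, and Rps24-202 joins the exons on either side of it. Rps24-205 was at 8.0 and 8.9 in WT, 13.8, 14.6 and 15.5 in mdx and 12.6, 14.1 and 15.7 in mdx sln+/- and rose by 0.73 ± 0.12 in mdx (limma, adjusted p = 0.0135). Rps24-202 was at 7.7 and 9.1 in WT and at 11.7, 12.3 and 13.1 in mdx and rose by 0.51 ± 0.11. Both forms thus rose together, and Rps24-201, at 6.5 and 7.2 in WT and 8.4, 7.2 and 6.3 in mdx, was not called. By annotation class, transcripts marked for nonsense-mediated decay held 7.37% to 8.42% and retained introns 6.73% to 6.99% of the summed abundance of the members, and in mdx against WT 1 of 17 and 0 of 42 of these transcripts rose.

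**Figure D5:**
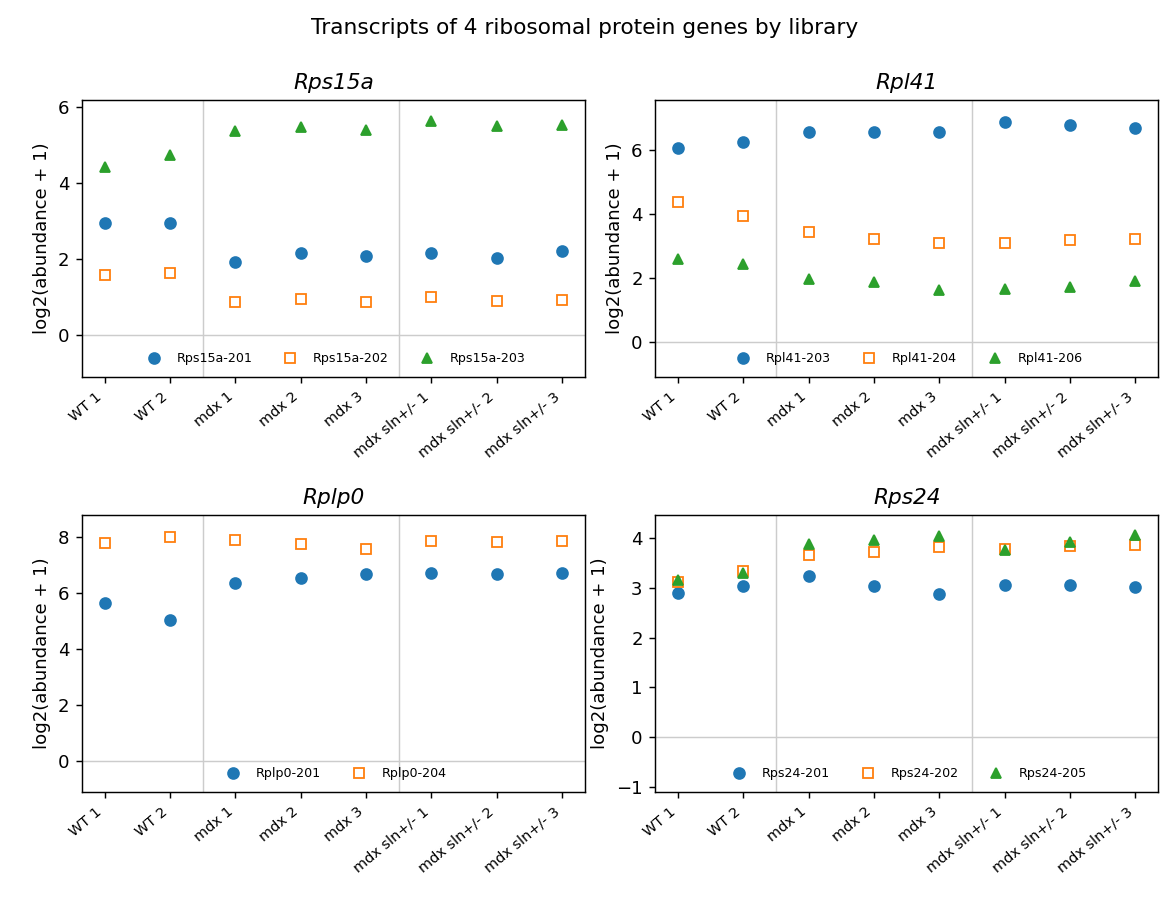
Level of single transcripts of Rps15a, Rpl41, Rplp0 and Rps24 (y axis, log2(abundance + 1)) in each library (x axis), with grey lines between the groups. In Rps15a and Rpl41 the form 203 is higher and 2 others are lower in the 6 mdx libraries than in WT, and in Rps24 the forms 202 and 205 are both higher.

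Genes around the ribosome were described by lists, to be read against the 9.56% higher and 8.15% lower over all genes in mdx against WT and the 11.3% and 7.65% in mdx sln+/- against WT. In mdx against WT, 0 of 19 other transcripts known for a terminal oligopyrimidine start passed (median difference -0.08), against 8 of the 76 ribosomal protein genes. Of 10 elongation factors 0 rose and 2 fell: Eef2k, the kinase that inhibits elongation factor 2, by 0.39 ± 0.08 and Eif5a2 by 0.46 ± 0.12. Among 38 initiation factors 0 rose and Eif1a fell, by 0.35 ± 0.08. Of 28 measured genes of the mTORC1 pathway and LARP1, 1 rose and 2 fell in mdx; Mtor, the kinase itself, fell by 0.31 ± 0.07 and its inhibitor Deptor by 0.70 ± 0.15. In mdx sln+/- against WT, 4 rose and 2 fell, Mtor by 0.46 ± 0.07 and Deptor by 0.56 ± 0.15, while Lamtor4 and Lamtor5, which anchor mTORC1 at the lysosome, rose by 0.37 ± 0.08 and 0.30 ± 0.07, Eif4ebp1 by 0.39 ± 0.10 and Ddit4, an mTORC1 inhibitor induced by stress, by 1.22 ± 0.25.

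Of 19 genes of RNA polymerase I and ribosomal RNA transcription, 2 rose and 3 fell in mdx. The subunit gene Polr1e rose by 0.84 ± 0.12 and Taf1d fell by 0.52 ± 0.11. Among 50 ribosome assembly factors 1 rose, Noc2l by 0.48 ± 0.07, and 4 fell, among them Nop10, a part of the particles that modify ribosomal RNA, by 0.37 ± 0.07. Grwd1, a chaperone of Rpl3, was the 1 of 8 ribosomal protein and nascent chain chaperones that rose, by 0.53 ± 0.09. In the list of nucleolar stress and p53, Trp53, the gene of p53, rose by 0.50 ± 0.10 and Phlda3, a p53 target, by 0.67 ± 0.18, and 5 of 7 did not pass. In ribosome quality control 2 of 11 rose, Usp10 by 0.30 ± 0.09 and Edf1, a sensor of collided ribosomes, by 0.24 ± 0.06. Of 23 alternatives, 7 ended the call of Trp53 (0.16 with its most abundant transcript, adjusted p = 0.597), 14 that of Phlda3, 16 that of Usp10, 12 each those of Edf1 and Mtor, 11 each those of Eif5a2 and Eif1a, 5 each those of Eef2k, Grwd1 and Deptor, and 2 that of Polr1e. These counts are for mdx against WT. For mdx sln+/- against WT, 11 of 23 alternatives ended the call of Deptor, 7 that of Lamtor5 and 3 that of Mtor. Such counts for Lamtor4, Eif4ebp1 and Ddit4 are not given here. In all of these lists 0 genes were called in mdx sln+/- against mdx.

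Some markers of other cells were called along with genotype. Among 7 cardiomyocyte markers 0 were called in any comparison, and their summed abundance was 41385 to 43325 in WT, 45250 to 49072 in mdx and 45361 to 48004 in mdx sln+/-. Of 8 macrophage markers, 4 rose in mdx against WT and 2 in mdx sln+/- against WT, with a summed abundance of 143 to 144 in WT, 159 to 212 in mdx and 161 to 209 in mdx sln+/-. Fibroblast markers summed to 518 to 621, 594 to 699 and 586 to 644, with 1 of 6 called higher in either comparison with WT, and endothelial markers to 401 to 515, 515 to 597 and 532 to 586, with 1 and 2 of 5 called higher. Of 5 smooth muscle and pericyte markers 1, Rgs5, rose in either comparison with WT, with sums of 538 to 540, 579 to 774 and 575 to 723 and a median difference of -0.47 in mdx sln+/- against WT. Blood markers gave 0 calls, with sums of 328 to 471, 284 to 904 and 289 to 542. Of 2 atrial myocyte markers measured, Nppa rose in both, with sums of 224 to 375 in WT, 499.9 to 691 in mdx and 478 to 659.6 in mdx sln+/-. The skeletal muscle markers were not analysed here. The B cell gene Ighm, the 1 lymphocyte marker measured, rose in both. The part of these cells in the differences of ribosomal protein genes was not tested.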

How the data were processed

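The authors deposited 1 table of log2 values for 33027 transcripts, with 2 columns (r1 and r2) for each of 8 libraries, per the file headers; the submitters' processing notes name STAR 2.6.1, Partek, limma and the build mm10, without their order. What r1 and r2 are, whether the values are divided by length and which strand was counted are not given in the sources used here. The mean of r1 and r2 (correlated at 0.981 to 0.987) was taken on the deposited log2 scale, and the linear values were summed per gene and written as log2(value + 1). Genes with at least 1 in at least 2 libraries (13783) were fitted with limma 3.58.1 (R 4.3.3) on all 8 libraries, with a trend and Benjamini-Hochberg adjustment over all genes (threshold 0.05). The deposited values hold no difference between library 2 and libraries 1 and 3 over both mdx groups (largest remaining difference 5.12e-05 log2 units), as after removal of such a term, which was therefore fitted, centred within groups, which leaves 4 residual degrees of freedom. No counts are held, and depth is unknown. Library numbers are those of the titles, and the labels do not say whether they pair samples.

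Copies were found with blastn 2.17.0 among GENCODE M21 transcripts, and coordinates are those of GENCODE M21 or RefSeq on GRCm38 (mm10). The fits were checked on simulated data. The members and lists were chosen with earlier results of these data known. Named members were the 8 largest rises and falls past the threshold in each comparison with a level of at least 1, or, with none called, the 4 lowest p values in each direction; the paralogue pairs, stalk proteins and Rps6; and the 5 highest and 5 lowest levels. In each list the 2 genes with the smallest p in mdx against WT and in mdx sln+/- against mdx could be named; other genes were chosen after their values were seen. The values of 1 member, which stays in all counts and medians, are not reported here. Alternatives were other terms, scaling, filter, pseudocount, transcript choice, r1 or r2 alone, added copies and leaving out libraries. Tables were handled in Python 3.11.15 with pandas 2.3.3, numpy 2.4.6 and matplotlib 3.10.9.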

Additional observations from a re-analysis of the deposited data

How the results depend on the processing

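No alternative called a ribosomal protein gene in mdx sln+/- against mdx; the median difference there was 0.049 with median-ratio scaling and 0.06 to 0.10 when 1 library was left out. For mdx against WT, 16 members were called without the removed term, and 0 with only the libraries of the 2 groups, with the name style as a term, with plain-named libraries, or without both libraries low in Y-linked genes; leaving out 1 library gave 3 to 8. The median there was 0.14 from r2 alone and 0.15 without both libraries low in Y-linked genes, and 0.083 to 0.153 with 1 library left out. For mdx sln+/- against WT, 13 were called with median-ratio scaling, 10 from r1 alone, 4 with the name style, 1 with plain-named libraries and 0 without both libraries low in Y-linked genes; leaving out 1 library gave 5 to 21. Its median was 0.12 with median-ratio scaling, 0.22 with pseudogenes added, 0.21 from r2 alone, 0.25 without both libraries low in Y-linked genes, 0.21 with copies added, and 0.12 to 0.24 with 1 library left out. Over all genes, median-ratio scaling turned 1317 higher and 1123 lower calls in mdx against WT to 1186 and 1298, and calls without the removed term were 2045 and 1753, and 2419 and 1577 in mdx sln+/- against WT. The sign changed for Rpl35 in mdx against WT with copies added (0.26) and for Rplp0 in mdx sln+/- against WT with its most abundant transcript alone (-0.036). Where fewer libraries were used, fewer residual degrees of freedom remained; otherwise the cause was not tested. The 21 rises in mdx sln+/- against WT came from the fit without mdx 1, which called 13.2% of all genes higher. With the replicate block 9, 0 and 16 members were called. Of all genes tested, that fit called 8.99% higher and 8.4% lower in mdx against WT. It called 0% in mdx sln+/- against mdx, and 9.89% higher and 7.26% lower in mdx sln+/- against WT. The removal of the term fixes the deviations of the libraries numbered 2 (correlation -0.996) and bears on the others (-0.26 and -0.31). Whether the numbers pair samples could therefore not be tested. Depth is unknown.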
